A study of Mus musculus with 2 samples.

Results

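The Xlr genes measured here are Xlr3b, Xlr4b and Xlr5d, members of the X-linked lymphocyte-regulated cluster of the mouse X chromosome. They were chosen as the probes whose symbol in the platform annotation is one of these names, which gave 3 genes, 1 probe each, of 16446 distinct symbols. Of these, 2 (Xlr3b and Xlr4b) were above background in all 4 channels of the series and 1 (Xlr5d) in none, with the blank spots as background. The series holds 2 two-colour oligonucleotide arrays of hippocampal RNA, and each RNA is a pool of 5 mice. The first array sets AtrxdE2 mice against wild-type mice; AtrxdE2 names an allele (AtrxΔE2) of Atrx, whose protein remodels chromatin. The second sets TMPyP4-treated AtrxdE2 mice against wild-type mice. TMPyP4 is a porphyrin known to bind DNA folded as a G-quadruplex, and the mice received 30 mg/kg by intraperitoneal injection, 2 times a week, between postnatal days 30 and 90. The labels give no vehicle for the untreated AtrxdE2 and wild-type mice, no strain or sex, and do not state if the arrays share a single wild-type pool.

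Xlr genes lie as tandem copies on the X chromosome, and their protein products share a conserved domain with SYCP3, a protein of the axis of meiotic chromosomes. In mouse brain, Xlr3b and Xlr4b are known as imprinted genes whose paternal copy is repressed, and Xlr3b is known as a gene that ATRX keeps low. The Xlr3b protein is known to bind messenger RNAs that neurons transport into dendrites, among them that of the kinase gene Camk2a. No role is given here for Xlr4b or Xlr5d beyond membership of the cluster.

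In RefSeq (assembly GRCm38.p6), Xlr3b and Xlr4b are direct neighbours, the 8th and the 9th of 13 genes between Xlr4a at one end of the cluster and Xlr5c at the other. Xlr3b, Xlr4b and Xlr5d are not the only copies: RefSeq lists 16 genes and pseudogenes whose names begin with Xlr, and 2 of these current names are on the array. The symbol Xlr3b was also an older name of Xlr3c, and Xlr5d is an older name of both Xlr5a and Xlr5d-ps, so the Xlr5d probe could not be tied to 1 current gene. Probe sequences were not used here. The values below may therefore hold signal from more than 1 copy, and how much was not tested.

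The promoter windows show how alike these copies are and which bases the Xlr3 and Xlr4 genes share. Each is the RefSeq sequence from 250 bases before to 50 bases after the transcription start, 5′ to 3′ on the gene's own strand. Capitals mark the longest run that is identical between Xlr3b and Xlr4b. Xlr3b lies on the plus strand (chrX:73191929-73192228), Xlr3c on the minus strand (chrX:73265341-73265640), Xlr4b on the plus strand (chrX:73214083-73214382) and Xlr5a on the minus strand (chrX:73117653-73117952).
Xlr3b: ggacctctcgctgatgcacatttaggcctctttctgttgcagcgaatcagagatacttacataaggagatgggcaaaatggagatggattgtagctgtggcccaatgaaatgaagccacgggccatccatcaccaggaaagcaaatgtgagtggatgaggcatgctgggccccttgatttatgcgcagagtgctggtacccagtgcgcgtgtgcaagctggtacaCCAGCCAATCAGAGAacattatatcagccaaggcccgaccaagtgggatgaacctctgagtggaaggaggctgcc
Xlr3c: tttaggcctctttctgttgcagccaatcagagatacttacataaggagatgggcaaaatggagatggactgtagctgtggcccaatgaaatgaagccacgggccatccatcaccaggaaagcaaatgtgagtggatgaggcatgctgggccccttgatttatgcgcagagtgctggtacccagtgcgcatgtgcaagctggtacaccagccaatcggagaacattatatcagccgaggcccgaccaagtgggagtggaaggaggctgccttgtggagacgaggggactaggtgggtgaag
Xlr4b: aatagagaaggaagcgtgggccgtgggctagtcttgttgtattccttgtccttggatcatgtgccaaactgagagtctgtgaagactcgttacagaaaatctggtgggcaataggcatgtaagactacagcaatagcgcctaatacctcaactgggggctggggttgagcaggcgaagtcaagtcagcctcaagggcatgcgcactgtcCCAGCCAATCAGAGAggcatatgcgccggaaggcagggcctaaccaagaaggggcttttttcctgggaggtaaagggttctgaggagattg
Xlr5a: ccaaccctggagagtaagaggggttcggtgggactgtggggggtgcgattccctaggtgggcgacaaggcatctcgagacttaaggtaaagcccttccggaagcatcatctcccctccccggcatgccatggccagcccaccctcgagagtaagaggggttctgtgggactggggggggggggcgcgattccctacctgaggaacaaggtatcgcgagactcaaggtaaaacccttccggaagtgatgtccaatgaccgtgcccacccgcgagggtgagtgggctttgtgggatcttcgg

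The Xlr3b and Xlr3c windows were identical at 264 of 280 aligned columns (94.3%), and Xlr4b and Xlr4c at 274 of 278 (98.6%). Xlr3b and Xlr4b, in contrast, aligned over 15 bases only, the run CCAGCCAATCAGAGA, which begins 25 bases before the start of Xlr3b and 41 bases before that of Xlr4b. The run was found on either strand in 9 of 32851 promoter windows (0.0274%). Of these, 5 belong to Xlr genes (Xlr3a, Xlr3b, Xlr4a, Xlr4b and Xlr4c) and 4 to others (Cdh18, Cxcl9, Gm38474 and Ndufa6). It contains CCAAT, a short motif that 37.4% of all windows hold on either strand. Both measured genes outside the cluster with the same run had log2 ratios near 0, with 0.0017 and 0.14 for Cdh18 and 0.14 and 0.22 for Ndufa6 in AtrxdE2 over wild type and in AtrxdE2+TMPyP4 over wild type.

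Because TMPyP4 binds G-quadruplex DNA, the windows were also searched on both strands for 4 runs of GGG with gaps of 1 to 7 bases. The pattern was found in Xlr, Xlr5a and Xlr5b of 11 Xlr windows and not in these 300 bases of Xlr3b, Xlr3c or Xlr4b. It was present in 18.6% of all windows. The palindrome TGCGCA occurred once in the windows of Xlr3b and Xlr4b and in 7.76% of all windows, and TATAAA in neither gene and in 13.6% of all windows. Xlr3b had 7 CG dinucleotides, Xlr4b 8 and Xlr5a 16, against a median of 7 over all windows. A match is a description of the letters, and no match says only that they are not in this window.

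The targeted gene was read first. The Atrx probe had a signal above the blank spots of 19.1 in AtrxdE2 against 47.4 in wild type on the same array, and of 71.5 in AtrxdE2+TMPyP4 against 54.6 in wild type. Its log2 ratio over wild type was -0.68 in AtrxdE2 and -0.36 in AtrxdE2+TMPyP4, and -1.96 and -0.78 in the authors' deposited table. Signals are not yet comparable between dyes: the median probe stood 64.6 above blank in the Cy3 channel of AtrxdE2 and 79.0 in that of AtrxdE2+TMPyP4, against 42.2 and 36.0 in the Cy5 channels of wild type. The log2 ratios are normalized for this within each array. Without a dye swap, a dye bias of a single probe cannot be told apart from the genotype. The position of the probe relative to the altered part of Atrx was not analysed here. The wild-type channels of the arrays, the only repeated genotype, correlated with r = 0.985 over 18664 measured probes, with an SD of their log2 difference of 0.29. Of the neuron markers, 6 of 7 were above background in every channel, including the hippocampal genes Prox1 (dim, with signals of 12.2 to 31.6), Neurod6 and Zbtb20. Their median log2 ratio over wild type was -0.060 in AtrxdE2 and 0.022 in AtrxdE2+TMPyP4. Between the treated and the untreated mutant pool, 3 were higher and 3 lower. Snap25 was at -0.67 and 0.59 over wild type, and its difference of 1.25 stayed past 2-fold under 5 of 6 alternatives. All 7 choroid plexus markers exceeded wild type by at least 2-fold in AtrxdE2+TMPyP4, although with local background the log2 ratios of Folr1 (0.75), Clic6 (0.53), Kcne2 (0.88) and Calml4 (0.87) stayed under 2-fold. Their summed signal after quantile normalization was 52117 in that pool and 785 in AtrxdE2, against 540 and 810 in the wild-type channels. These sums include an offset added to each probe. Above the blank spots they were 62316 in AtrxdE2+TMPyP4 and 478 in AtrxdE2, against 113 and 270 in the wild-type channels. Median log2 ratios over wild type in AtrxdE2 and AtrxdE2+TMPyP4 were 0.60 and 1.21 for meninges markers. They were -0.76 and -0.69 for 4 measured of 6 oligodendrocyte markers, of which Mag was at -0.32 and 0.034. For 3 measured striatum markers the medians were -0.071 and -0.76, and the markers differed. Ppp1r1b was at -0.90 and -0.89, Rgs9 at 0.049 and -0.76, and Drd2 at -0.071 and -0.50. In bulk tissue, more cells of a type and more RNA per cell cannot be told apart. With 1 array for each comparison there is no replicate error, and no p-value is given.

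Xlr3b was far higher in AtrxdE2 hippocampus than in wild type, and lay much closer to wild type in the TMPyP4-treated pool. The probe had a signal of 434 in AtrxdE2 against 49.9 in wild type on the first array, and of 126 in AtrxdE2+TMPyP4 against 40.8 in wild type on the second. In SDs of the blank spots above the blank mean, these signals were 131 in AtrxdE2 and 40.6 in its wild-type partner, and 38.6 in AtrxdE2+TMPyP4 and 44.3 in its partner. The blank SD was 3.30 and 3.27 in the Cy3 channels and 1.23 and 0.92 in the Cy5 channels, so these units do not compare the dyes. On the log2 scale after quantile normalization over the 4 channels, the level of Xlr3b was 8.70 in AtrxdE2 and 7.15 in AtrxdE2+TMPyP4, against 6.91 and 6.87 in wild type. On that scale the AtrxdE2 channel stood apart, and the wild-type channels were close to each other. The wild-type levels thus differed by -0.039 (second minus first array), while the SD of that difference over the 500 genes nearest in signal was 0.33.

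**Figure D1:**
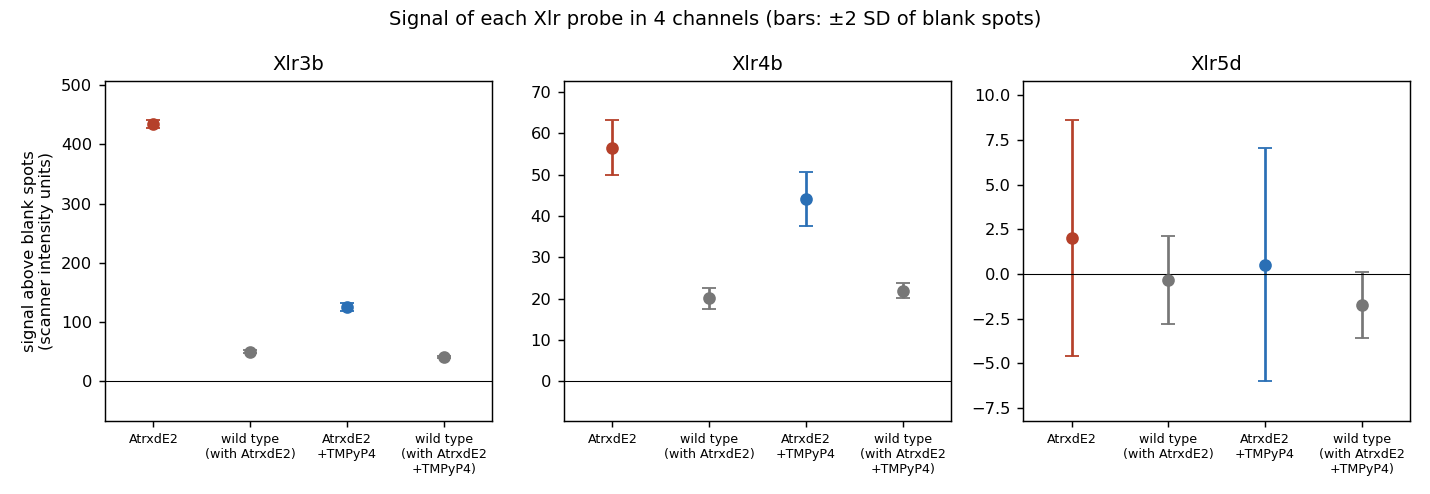
Signal above the mean of the blank spots, in scanner intensity units, of the Xlr3b, Xlr4b and Xlr5d probes in the 4 channels, each panel on its own linear scale. Points are single channels, wild type is shown beside the mutant pool it shared an array with, and bars are ±2 SD of the blank spots; Xlr3b stands at 434 in AtrxdE2, and all 4 bars of Xlr5d cross the blank level.

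As a normalized ratio within the array, Xlr3b had a log2 ratio of 1.75 in AtrxdE2 over wild type, the highest of 13630 measured named genes and the second of 18664 measured probes. In the authors' deposited table it was 2.47, the highest of those probes. A ratio of at least 2-fold was found for 12 probes on the higher side, 0.0643% of those measured, and Xlr3b was among them, while 0.0214% were on the lower side. In the authors' deposited table, a share of 1.17% of the same probes passed 2-fold on the higher and 0.793% on the lower side. The SD over the 500 genes of closest signal was 0.21 in this comparison. In AtrxdE2+TMPyP4 over wild type the log2 ratio of Xlr3b was 0.30 (0.46 in the authors' deposited table), the 946th highest of the named genes. It did not pass 2-fold there, where 0.145% of probes did on the higher and 0.0697% on the lower side (1.67% and 0.766% in the authors' deposited table). The SD over genes of closest signal was 0.23.

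The difference between the treated and the untreated mutant pool was -1.45 for Xlr3b on the log2 scale (-2.01 in the authors' deposited table), the 5th lowest of the named genes and the 13th lowest of the probes (53rd in that table). It was one of 49 probes at least 2-fold lower in AtrxdE2+TMPyP4 (0.263%), against 0.214% higher, and the SD over the genes nearest in signal was 0.29. In the authors' deposited table, a share of 2.5% of probes was lower and 3.09% higher by this measure. Compared directly between the mutant channels, without either wild-type channel, Xlr3b was 2.93-fold lower in AtrxdE2+TMPyP4 than in AtrxdE2. Probes both at least 2-fold higher in AtrxdE2 than in wild type and at least 2-fold lower in the treated than in the untreated pool numbered 6 (0.0321%). Xlr3b was the only one of them with a gene name, and the other 5 are unnamed here. In the authors' deposited table, which has no offset, 118 probes (0.632%) met both conditions.

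Xlr4b, the neighbour of Xlr3b, lay on the same side in AtrxdE2 but much closer to wild type, and its probe was dim. Its signal was 56.5 in AtrxdE2 against 20.1 in wild type on the first array, and 44.2 in AtrxdE2+TMPyP4 against 22.0 in wild type on the second. All 4 channels were above the blank spots, by 17.1 SDs in AtrxdE2 and 16.3 in its wild-type partner, and by 13.5 in AtrxdE2+TMPyP4 and 23.9 in its partner. After quantile normalization its log2 level was 6.70 in AtrxdE2 and 6.45 in AtrxdE2+TMPyP4, against 6.36 and 6.50 in wild type. AtrxdE2 was thus above both wild-type channels, and the treated pool lay between them.

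The log2 ratio of Xlr4b was 0.32 in AtrxdE2 over wild type, -0.035 in AtrxdE2+TMPyP4 over wild type and -0.36 between the treated and the untreated mutant pool. The same values were 0.84, -0.16 and -1.0 in the authors' deposited table. The SD of the wild-type difference over the genes nearest in signal was 0.19, and Xlr4b ranked 600th highest of the named genes in AtrxdE2. An offset of 50 added to both channels brings the ratio of a probe of this signal closer to 0. With plain subtraction of the blank mean the ratio in AtrxdE2 was 0.87, and moving each channel by 2 blank SDs placed it between 0.53 and 1.22. The ratio in the treated pool was -0.12 by that method, with a range of -0.47 to 0.21. With the local background of each spot in place of the blank spots, the ratios were 0.092 in AtrxdE2 and 0.099 in AtrxdE2+TMPyP4, and the difference was 0.0070. The signal of Xlr4b above local background was 31.5 in AtrxdE2 against 15.7 in wild type, and 28.3 in AtrxdE2+TMPyP4 against 0.66 in wild type. The lower value of Xlr4b in the treated than in the untreated pool depended on the background used.

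**Figure D2:**
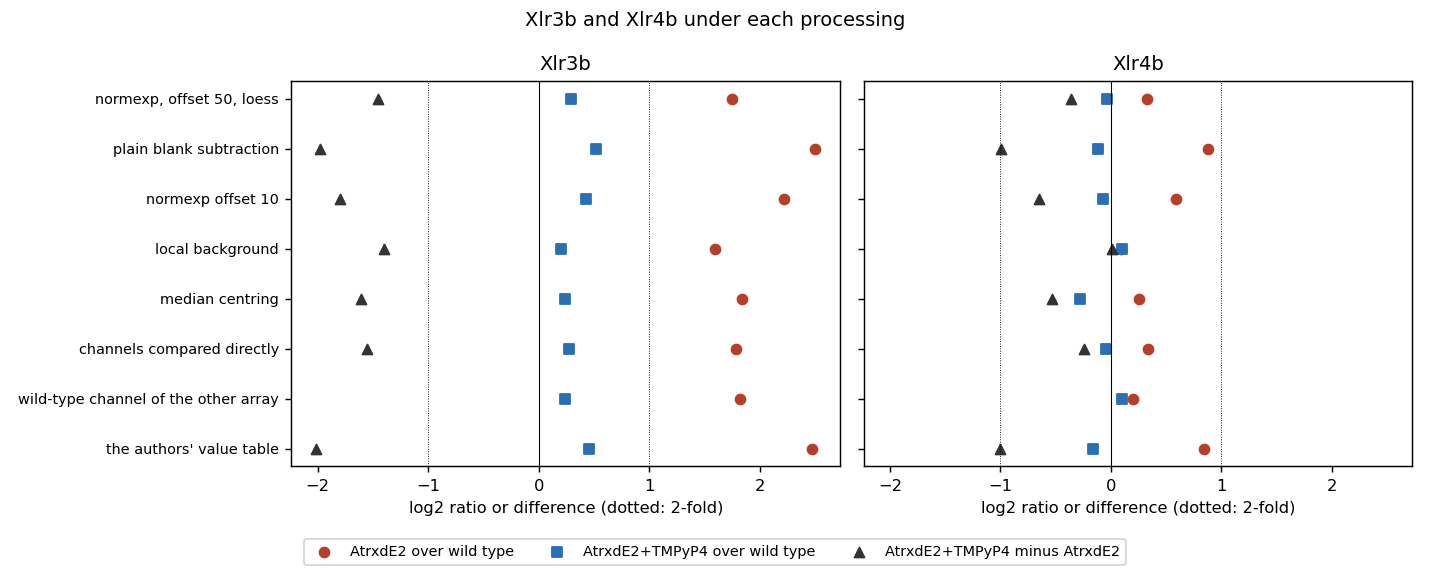
Log2 ratios over wild type and their difference for Xlr3b (left) and Xlr4b (right) under each way of processing, with dotted lines at 2-fold. Xlr3b lies between 1.60 and 2.50 in AtrxdE2 over wild type under all settings shown, whereas Xlr4b lies between 0.092 and 0.87 and its difference between the mutant pools between -1.0 and 0.0070.

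Xlr5d was not above the blank spots in any channel. Its probe was at 2.0 in AtrxdE2 and 0.52 in AtrxdE2+TMPyP4, and at -0.33 and -1.73 in wild type, all within 2 SDs of the blank mean. Above the local background of the spot it was at 22.0 in AtrxdE2 and 13.2 in AtrxdE2+TMPyP4, and at 3.85 and -0.56 in wild type. No ratio is given, and the authors' deposited table has none either. The values do not show whether the gene is silent.

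Neighbouring spots on the slide were read as a check on local artefacts. The 13 measured spots within 2 rows and 2 columns of Xlr3b had a median log2 ratio of 0.0035 in AtrxdE2 over wild type, from -0.21 to 0.58. Their median difference between the treated and the untreated mutant pool was 0.0045. A single unnamed probe beside Xlr3b had a difference of -1.43, with 0.58 in AtrxdE2 over wild type and -0.85 in the treated pool over wild type. The 18 spots around Xlr4b had a median of -0.031 in AtrxdE2 over wild type.

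Xlr3b was the highest X-linked gene in AtrxdE2 over wild type and the lowest in the difference between the treated and the untreated mutant pool, both here and in the authors' deposited table. Of 435 measured X-linked genes, 225 were above 0 in AtrxdE2 over wild type, against 6723 of all 13630 named genes. The X-linked median was 0.0085 against -0.0029 for all named genes. Xlr3b was the only X-linked gene past 2-fold (0.23%) with an offset of 50. In the authors' deposited table, which has no offset, 5 X-linked genes were higher and 8 lower by at least 2-fold, with Xlr3b the highest and Atrx the lowest. With an offset of 50, Xlr3b was followed by the mRNA export gene Thoc2 with 0.71 and B230333C21Rik (now Akap17b) with 0.57, and Xlr4b was the 27th. The lowest with that offset were Gabra3, which encodes a subunit of the GABA receptor, with -0.82, Gprasp1 with -0.71 and Atrx itself with -0.68. In AtrxdE2+TMPyP4 over wild type no X-linked gene passed 2-fold with an offset of 50, but 7 were at least 2-fold higher in the authors' deposited table, and Stard8 passed under 4 of 7 alternatives. The highest with an offset of 50 were Stard8 with 0.87, BC068171 (now Dkc1, of the telomerase complex) with 0.71 and C1galt1c1 with 0.67, and Xlr3b was the 35th. Pnck had -0.66, Zcchc12 -0.62 and the thymosin gene Tmsb4x -0.58, of which Zcchc12 (1.26) and Tmsb4x (0.73) turned sign under another processing. Between the treated and the untreated mutant pool, Xlr3b was the lowest X-linked gene at -1.45, followed by Zmym3 with -0.81 (0.0038 with local background) and 6330505F04Rik (now Ints6l) with -0.74. Xlr4b was the 27th lowest. Gabra3 with 1.03, Nkrf with 0.86 and Hccs with 0.81 were the highest with an offset of 50. With that offset, 1 X-linked gene was higher and 1 lower by at least 2-fold in this difference. By the same measure 14 were higher and 8 lower in the authors' deposited table, with Taf9b the highest and Xlr3b the lowest.

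The measured genes on either side of the cluster, 8 on each, did not follow Xlr3b as a group. In AtrxdE2 over wild type their median was 0.0093, with 10 of 16 above 0 and none past 2-fold (Gabra3 is at -1.0 in the authors' deposited table). In the difference between the treated and the untreated mutant pool their median was -0.0099, with 8 of 16 above 0. Over all 13630 named genes, 6723 were above 0 in AtrxdE2 over wild type and 7188 in the difference. Pnma3, which lies directly beside Xlr4a, was higher in AtrxdE2 than in wild type and lower in the treated than in the untreated pool. It had 0.38 in AtrxdE2 over wild type, -0.10 in the treated pool over wild type and a difference of -0.48. Its signals were 252 in AtrxdE2 against 115 in wild type, and 131 in AtrxdE2+TMPyP4 against 69.4 in wild type. The wild-type channels of Pnma3 themselves differed by -0.37 on the log2 scale, and with that of the other array its ratio in AtrxdE2 was 0.75.

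Farther out, Bgn, which encodes the matrix proteoglycan biglycan, had 0.51 in AtrxdE2 and 0.23 in the treated pool over wild type. Gabra3 went the other way from Xlr3b, with -0.82 in AtrxdE2, 0.21 in the treated pool and a difference of 1.03. Its signals were 249.3 in AtrxdE2 against 318 in wild type, and 654 in AtrxdE2+TMPyP4 against 247 in wild type. The kinase gene Pnck was at 0.0085 in AtrxdE2 and -0.66 in the treated pool. The other neighbours (Pnma5, Zfp185, Nsdhl, Cetn2, Magea4, Cnga2, Zfp275, Zfp92, Trex2, 1110020L19Rik, now Haus7, Atp2b3 and Dusp9) had ratios between -0.20 and 0.28 over wild type on both arrays. Several were dim, with signals in AtrxdE2 of 10.2 for Zfp185, 10.6 for Zfp92 and 11.6 for Magea4. In the authors' deposited table, which has no offset, their ratios ran from -0.84 (Trex2) to 0.77 (Magea4), both in the treated pool. The Atp2b3 difference was 1.18 there and passed 2-fold under 2 of 6 alternatives.

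**Figure D3:**
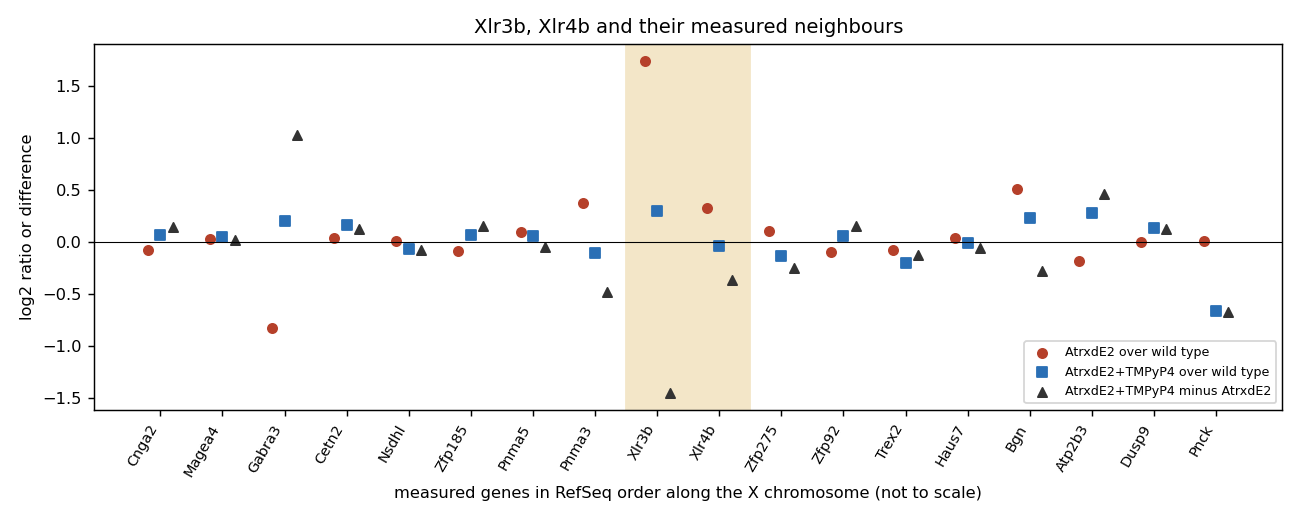
Log2 ratios over wild type and their difference for Xlr3b and Xlr4b (shaded) and the 8 nearest measured genes on each side, in RefSeq order along the X chromosome and not to scale. Points are single values; Xlr3b reaches 1.75 and -1.45, and of the values plotted for the neighbours only the Gabra3 difference of 1.03 passes 2-fold.

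Genes whose pair of ratios was most like that of Xlr3b were all at a distance. By Euclidean distance in the plane of both log2 ratios (2 arrays), the 8 nearest named genes were Ankhd1 (distance 0.79), the corepressor gene Ncor1 (0.79), the fibronectin gene Fn1 (0.94), Ints6 (0.96), the adhesion gene Alcam (0.96), the channel gene Trpc6 (0.97), Sipa1l1 (0.98) and Nrip1 (1.0). None is X-linked. Their ratios lay between 0.75 and 0.99 in AtrxdE2 and between 0.23 and 0.65 in the treated pool over wild type. Their differences between the pools, from -0.54 for Ncor1 to -0.20 for Trpc6, were all smaller in size than that of Xlr3b. For Fn1 the wild-type channels differed by -0.72. The sign of the difference between the pools turned for Ncor1 (0.76), Fn1 (0.31) and Sipa1l1 (0.055) under at least 1 other processing. Xlr4b lay in a crowded region. Its 5 nearest genes (Pank4, Cdyl2, Calu, U2af1l4 and Ints2) were at distances of up to 0.015, and none is X-linked either.

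**Figure D4:**
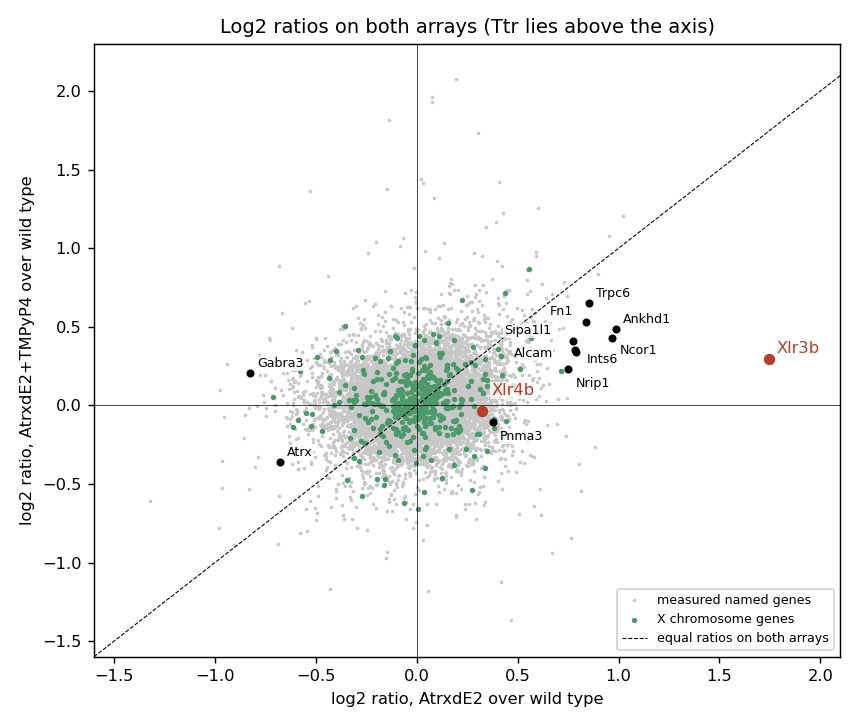
Log2 ratio of AtrxdE2+TMPyP4 over wild type against that of AtrxdE2 over wild type, 1 point per measured named gene, with X chromosome genes in green and equal ratios on the dashed line. Xlr3b lies alone at 1.75 and 0.30, while Xlr4b lies among other genes at 0.32 and -0.035.

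Genes related to Xlr3b by family or role were read from lists chosen for this purpose. Of the Xlr family list, 2 of 15 members were measured, the same 2 that were measured on the list of X-linked imprinted and X inactivation genes, which has 8. Sycp3, the family's relative among meiotic genes, was not above background in all 4 channels. Of meiosis and germline genes 12 of 23 were measured. In AtrxdE2 over wild type 7 of them were above 0, against 6723 of all 13630 named genes, and their median was 0.014. The measured genes of this list ranged from Msh5 at -0.13 and Mlh3 at -0.099 to Dazl at 0.15 and Rec8L1 (now Rec8, the meiotic cohesin subunit) at 0.19. In the difference between the treated and the untreated mutant pool their median was 0.013, with Rec8L1 at -0.34 and Mlh3 at -0.29 at the lower end and Msh5 at 0.10 and Syce1 at 0.17 at the upper end. None passed 2-fold in either comparison with an offset of 50, against 3 named genes higher and 1 lower of all 13630 in the first and 29 higher and 14 lower in the second. Under at least 1 other processing the ratio in AtrxdE2 turned sign for Rec8L1 (-0.14) and Mlh3 (0.072), and the difference for Rec8L1 (0.011), Mlh3 (0.069) and Syce1 (-0.11). The difference of Syce1 was 1.81 in the authors' deposited table and passed 2-fold under 2 of 6 alternatives.

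ATRX and its chromatin partners had a median of 0.017 in AtrxdE2 over wild type. Of 13 measured genes 7 were above 0, against 6723 of all 13630 named genes. Cbx5, which encodes the heterochromatin protein HP1 alpha, was at 0.33 and the histone methyltransferase gene Setdb1 at 0.23, while the histone gene H3f3a was at -0.37. In the treated minus the untreated mutant pool the same list had a median of -0.056, with Setdb1 at -0.44, Cbx5 at -0.27, the histone chaperone gene Hira at 0.25 and Atrx at 0.32. CTCF and cohesin genes had a median of 0.083 in AtrxdE2, with 7 of 10 above 0, against the same 6723 of 13630. The cohesin regulator genes Aprin (now Pds5b) and Nipbl were at 0.63 and 0.26, and the cohesin genes Rad21 and Stag1 at -0.31 and -0.20. In the difference between the pools Rad21 was at 0.45, Stag2 at 0.35, Nipbl at -0.34 and Smc1l1 (now Smc1a) at -0.22, with a median of -0.023. Aprin in AtrxdE2 was at 1.13 in the authors' deposited table and ranged from 0.064 to 1.18 over 7 alternatives. Of genes of the ancestral pseudoautosomal region 3 of 10 were measured, and in AtrxdE2 Mid1 was at 0.22, Dhrsx at 0.13 and Csf2ra at -0.33. Their differences between the pools were -0.28, -0.00036 and -0.16. Signs turned under at least 1 other processing for Cbx5 (-0.12) and Rad21 (0.38) in AtrxdE2, and for Cbx5 (0.15), Hira (-0.19), Rad21 (-0.26) and Dhrsx (0.19) in the difference.

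Genes of dendritic RNA transport, the process in which the Xlr3b protein is known to act, had a median of 0.17 in AtrxdE2 over wild type. Of 22 measured genes 15 were above 0, against 6723 of all 13630 named genes, and none was past 2-fold. With the wild-type channel of the other array Camk2a (1.37) and Pum2 (1.29) passed it. Pum2, which encodes a Pumilio repressor of messenger RNAs, was at 0.55 and Pura, an RNA granule protein gene, at 0.41. The activity-regulated gene Arc was at -0.44 and the kinesin gene Kif5c at -0.33. Camk2a, whose messenger RNA the Xlr3b protein binds, was at 0.30 in AtrxdE2 and 0.011 in AtrxdE2+TMPyP4 over wild type. In the difference between the treated and the untreated mutant pool the median was -0.070, against 0.015 for all named genes. Above 0 were 10 of 22, against 7188 of 13630 named genes. The translation regulator gene Cpeb1 was at -0.84 and Tial1 at -0.74, and Kif5c at 0.61 and the fragile X gene Fmr1 at 0.55. The ratio in AtrxdE2 turned to 0.44 for Arc and 0.11 for Kif5c with the wild-type channel of the other array. The difference turned to 0.33 for Tial1 under another processing, was 1.13 for Kif5c in the authors' deposited table, and for Camk2a it ranged from -1.40 to 1.75. These are levels of RNA in whole hippocampus and say nothing of where in the neuron the RNA was.

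Because the cluster is named for lymphocytes, markers of blood cells were read beside Xlr3b. Of 17 lymphocyte markers 8 were measured, and Cd3e, Cd3g, Cd2, Ms4a1, Rag1, Rag2 and Il7r were not above background in all 4 channels. The summed signal of the 8 measured, with the offset after quantile normalization, was 808 in AtrxdE2 and 725 in AtrxdE2+TMPyP4, against 769 and 812 in wild type. Above the blank spots it was 432.2 in AtrxdE2 against 248.6 in wild type, and 391.4 in AtrxdE2+TMPyP4 against 235.3 in wild type. The sums above the blank spots are not normalized between the dyes. Of these markers, Igh6 (now Ighm, the immunoglobulin M heavy chain) was at 0.33 in AtrxdE2 and -0.63 in the treated pool over wild type, with -0.16 in AtrxdE2 under another processing. All 4 blood markers were measured. Their summed signal with the offset after quantile normalization was 468 in AtrxdE2 and 376 in AtrxdE2+TMPyP4, against 375 and 413 in wild type. Above the blank spots the sums were 288 in AtrxdE2 against 117 in wild type, and 218 in AtrxdE2+TMPyP4 against 124 in wild type. The median log2 ratio of the blood markers over wild type was 0.33 in AtrxdE2 and -0.12 in AtrxdE2+TMPyP4. Without an offset, it was 1.065 and -0.31 in the authors' deposited table. The neutrophil gene S100a9 was, like Xlr3b, higher in AtrxdE2 and lower in the treated pool. Its signal was 80.5 in AtrxdE2 against 12.6 in wild type, and 10.8 in AtrxdE2+TMPyP4 against 10.8 in wild type. Its log2 ratio was 0.74 in AtrxdE2 and -0.20 in the treated pool over wild type, with a difference of -0.93 between the pools. The authors' deposited table has 2.02, -1.18 and -3.2 for S100a9, and its difference passed 2-fold under 4 of 6 alternatives. S100a8 had 0.42 and -0.071 with a difference of -0.49 (0.74, -0.22 and -0.96 in the authors' deposited table). The neutrophil granule gene Ngp had 0.24 and -0.022 with a difference of -0.26 (1.39, -0.08 and -1.47 in the authors' deposited table), and the red cell gene Alas2 -0.093 and -0.17 with a difference of -0.077. In the treated pool over wild type, S100a9 (0.012), S100a8 (0.19), Ngp (0.10) and Alas2 (0.13) turned sign under another processing. The Alas2 difference turned to 0.40. Whether blood cells or the choroid plexus content of the treated pool had a part in the Xlr3b values was not tested.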

How the data were processed

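Hippocampal RNA, pooled from 5 mice per group, was amplified to amino allyl RNA and coupled to Cy5 (wild type) or Cy3 (mutant pools) on 2 arrays, per the labels, with no dye swap. Per the file headers, the deposited tables hold the median intensity of each spot, merged from 3 scanner gains, with its local background and a quality mark. Scanning software is not given in the sources used here. Per the labels, the authors' deposited value table holds log2 ratios (mutant over wild type) after normalization. Each value equals the log2 ratio after subtraction of the blank-spot mean, minus a constant of 0.65 (first array) or 1.17 (second), within 0.01 for 99.995% of values.

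Background was corrected with normexp (limma 3.58.1, R 4.3.3; offset 50) against the trimmed mean of 2736 blank spots (a share of 0.05 left out at each end), followed by loess within each array with control spots at weight 0. Negative ratios are lower in the mutant pool. A probe was measured when it exceeded the blank mean by 2 SD in all 4 channels without a bad mark, which left 18664 of 23473 probes and 13630 named genes. Probes of 1 gene were averaged. The computation was tested on simulated data, with known ratios put into measured probes of these arrays. For the normalization, the test required the sign of the ratio to be recovered and not its size.

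In the platform annotation 16631 probes have a single gene symbol, no probe has several, and 6842 are unnamed here. Of 16446 symbols, 12501 are current in RefSeq, 3883 matched through a single older name and 62 did not. Promoter windows come from RefSeq (GRCm38.p6), with alignments by Biopython 1.88. Named genes were the members, Atrx, the nearest genes in the plane of ratios (8 for Xlr3b and 5 for Xlr4b), up to 8 measured X-linked neighbours on each side, the 3 highest and lowest X-linked genes and the 2 highest and lowest of each list. Camk2a, cell type markers and genes that share the promoter run lie outside this rule and were chosen after their values were seen. Members, lists and rules were chosen with earlier results of these data known. Alternatives were other background corrections, offsets, normalizations, filters and the deposited values.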

Additional observations from a re-analysis of the deposited data

Results flagged for a closer look

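Xlr4b had log2 ratios over wild type of opposite sign on the arrays, 0.32 in AtrxdE2 and -0.035 in AtrxdE2+TMPyP4, and this difference of -0.36 between the treated and the untreated mutant pool was not tested, since each group is 1 pool on 1 array. The ratio in the treated pool is smaller in size than the SD of the wild-type difference among genes of similar signal (0.19). It turned to 0.099 with local background and to 0.097 with the wild-type channel of the other array, so the opposite sign depended on the processing. Groups of 1 sample allow no search for outlying samples.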

How the results depend on the processing

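The log2 ratio of Xlr3b in AtrxdE2 over wild type lay between 1.60 and 2.50 under 7 alternatives, all past 2-fold. It moved by more than the wild-type spread with plain subtraction of the blank mean (2.50), an offset of 10 (2.22) and the authors' deposited table (2.47). Its difference between the treated and the untreated mutant pool lay between -2.01 and -1.40 under 6 alternatives and moved in the same 3, to -1.98, -1.79 and -2.01. In the treated pool over wild type it lay between 0.20 and 0.52. For Xlr4b in AtrxdE2 the same 3 gave 0.87, 0.58 and 0.84, and local background gave 0.092. Its difference between the pools was -0.99, -0.66 and -1.0 in them and 0.0070 with local background. Median centring gave -0.28 in the treated pool over wild type.

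Counts of probes past 2-fold depended strongly on the processing. With plain subtraction, AtrxdE2 over wild type had 176 higher and 174 lower, AtrxdE2+TMPyP4 over wild type 253 and 175, and the difference between the pools 570 and 485. An offset of 10 gave 28 and 15, 64 and 32, and 105 and 136 in the same order. The authors' deposited table gave 219 and 148, 311 and 143, and 576 and 467. Local background gave 24 higher and 23 lower in AtrxdE2, 447 higher in AtrxdE2+TMPyP4 and 601 higher in the difference. Median centring gave 91 higher and 1 lower in AtrxdE2+TMPyP4 and 89 higher in the difference. The wild-type channel of the other array, chosen after seeing the data, gave 171 higher and 103 lower in AtrxdE2 and 78 higher and 188 lower in AtrxdE2+TMPyP4. Comparing channels directly gave 173 higher and 245 lower in the difference, and probes above the median signal gave 13 higher in AtrxdE2+TMPyP4.

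Of 140 list medians 132 did not move, also under alternatives chosen after seeing the data. A median counted as moved only past an SD of the wild-type difference, 0.39 for the dendritic list, which is wide for a median. Within that bound, the dendritic median in AtrxdE2 over wild type was 0.37 with median centring. Its difference between the pools turned to 0.16 with local background. The CTCF and cohesin median in AtrxdE2+TMPyP4 over wild type was 0.36 with median centring. The pseudoautosomal median there was -0.47 with plain subtraction, -0.49 with median centring, -0.22 with the other wild-type channel and -0.32 in the authors' deposited table. In the difference it was -0.35, -0.45 (channels compared directly) and -0.37. Of 3000 values of 150 other named or marker genes, 621 moved. Ttr in AtrxdE2 over wild type turned to -0.14 with the other wild-type channel. The cause was not tested.

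No paired analysis was possible because the groups share only replicate number 1. Each group is 1 pool on 1 array, so the spread between animals is unknown. Genotype cannot be told apart from dye, nor treatment from array. Leaving out a replicate was not possible for the same reason. The dim Xlr4b probe limits its ratio to what the background correction allows.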
